A study of Mus musculus with 3 samples.

Results

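A set of 9 genes of the cytotoxic program of lymphocytes were followed across single cells of 3 mouse melanomas: the granzymes Gzma, Gzmb, Gzmc and Gzmf, the pore-forming Prf1, the granule membrane gene Nkg7, the surface receptor Klrg1, the cytokine Ifng and the death ligand Fasl. They were chosen by name, and all 9 were found among the 36530 features of the count tables. The tumors arose in C57BL/6 mice that carried a Cre-activated Braf V600E allele under Tyr.CreER, a tamoxifen-inducible Cre driven by the tyrosinase promoter of melanocytes, some also with a Rosa26 tdTomato reporter. Tumors were induced in flank skin at 8 to 12 weeks of age with 4-OH tamoxifen, so every group shared this model. The groups were 1 untreated tumor, 1 that regressed and 1 that progressed under vemurafenib, an inhibitor of the mutant Braf kinase given by mouth at 50 mg/kg. With 1 tumor per group there was no spread between animals, so no test was possible. All intervals are 95% intervals for counting error only, and a treatment difference cannot be told apart from a difference between animals.

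Of 12670 cells, 4095 came from the untreated, 3726 from the regressed and 4849 from the progressed tumor, and the regressed library was the shallowest (12413268 UMIs, against 22202192 and 26948940). UMIs, the tags that let each captured RNA molecule be counted once, are given as CPM, the UMIs of a gene per 1000000 UMIs of the cells concerned. The deposited annotation named 25 clusters, of which NK_T and NK_T_Cytolytic were combined as NK/T cells. NK_T held 25, 180 and 17 cells of the untreated, regressed and progressed tumor, and NK_T_Cytolytic held 15, 58 and 24. The regressed animal also differed in sex-linked RNA, with Xist, which coats the silenced X chromosome in females, at 0.403 CPM against 1494 CPM in the untreated and 1735 CPM in the progressed tumor.

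Cytotoxic lymphocytes kill by releasing granules. Perforin, the product of Prf1, opens the target membrane, and granzymes, serine proteases held in the same granules, enter and cleave proteins of the target. Fasl kills by binding the Fas receptor instead, and Ifng acts on surrounding cells to raise antigen presentation. NK cells, CD8 T cells and innate-like lymphocytes use this equipment in different mixtures, and some regulatory T cells carry Gzmb.

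The 2 cluster names were checked against markers. Cd3g, a chain of the T cell receptor complex, was detected in all 97 NK_T_Cytolytic cells, while Ncr1, the NK receptor, and Foxp3, the factor of regulatory T cells, had no UMI there. The other NK markers were not absent: of the list Ncr1, Klrb1c, Klra8 and Klre1, at least 1 gene was detected in 0 of 15 untreated, 20 of 58 regressed (34.5%) and 8 of 24 progressed (33.3%) NK_T_Cytolytic cells, and in 24.0%, 10.6% and 5.88% of NK_T cells. Cd8a or Cd8b1 was seen in 1 NK_T_Cytolytic cell and Cd4 in 1. Il1rl1 or Gata3, the markers listed for type 2 innate lymphoid cells, was detected in 48.0%, 48.3% and 76.5% of untreated, regressed and progressed NK_T cells. In NK_T_Cytolytic the shares were 6.67%, 22.4% and 20.8%. At least 1 of Cd3d, Cd3e and Cd3g was also detected in 72.0%, 84.4% and 88.2% of NK_T cells of the untreated, regressed and progressed tumor, and Ncr1, Foxp3, Cd4 and CD8 chains all occurred among the NK_T cells of the regressed tumor. The constant genes of the T cell receptor chains were not matched in the tables, so alpha-beta and gamma-delta T cells could not be separated.

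Gzmb, Gzmc, Gzmf and Prf1, which divide between the 2 clusters in different ways, are shown by the 250 bases before their RefSeq start (GRCm38.p6, minus strand for Gzmb, Gzmc and Gzmf, plus strand for Prf1). Capitals mark TGTGGT, the letters of a Runx site, and CAGGAAGT, those of an Ets site, on either strand. The windows lie at chr14:56262335-56262584 (Gzmb), chr14:56234658-56234907 (Gzmc), chr14:56211408-56211657 (Gzmf) and chr10:61297586-61297835 (Prf1). They end at the start used in the RefSeq promoter table, which for Gzmc and Prf1 lies inside the annotated span of the gene, since other transcripts start further upstream.
Gzmb: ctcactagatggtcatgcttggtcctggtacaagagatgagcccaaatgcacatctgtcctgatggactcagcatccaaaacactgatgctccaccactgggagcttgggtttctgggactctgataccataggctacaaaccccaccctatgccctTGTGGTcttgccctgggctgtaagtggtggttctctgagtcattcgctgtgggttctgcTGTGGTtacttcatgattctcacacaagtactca
Gzmc: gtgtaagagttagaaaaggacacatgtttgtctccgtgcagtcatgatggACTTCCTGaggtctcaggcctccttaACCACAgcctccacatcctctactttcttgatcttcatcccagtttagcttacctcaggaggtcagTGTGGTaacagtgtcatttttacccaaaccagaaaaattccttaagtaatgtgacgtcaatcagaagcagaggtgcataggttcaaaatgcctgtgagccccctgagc
Gzmf: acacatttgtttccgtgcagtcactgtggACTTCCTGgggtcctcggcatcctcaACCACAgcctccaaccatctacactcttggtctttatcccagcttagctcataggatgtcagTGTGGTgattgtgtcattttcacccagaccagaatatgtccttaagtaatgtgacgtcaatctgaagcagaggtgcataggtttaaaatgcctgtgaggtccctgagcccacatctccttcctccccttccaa
Prf1: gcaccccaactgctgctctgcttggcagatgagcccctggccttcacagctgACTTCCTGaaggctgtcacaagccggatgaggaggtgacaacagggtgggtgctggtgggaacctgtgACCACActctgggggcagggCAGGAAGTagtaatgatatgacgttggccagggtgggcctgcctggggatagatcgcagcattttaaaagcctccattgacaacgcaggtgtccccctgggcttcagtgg
Gzmc and Gzmf, which lie in the granzyme cluster of chromosome 14 with Gzmb, agreed at 193 of 225 aligned bases (85.8%), and the other pairs among the 8 member promoters that RefSeq gave agreed at 52.7% to 69.5%. Gzmf held the same order of an Ets and 2 Runx matches as Gzmc. Gzmf had no UMI in the NK_T_Cytolytic cluster and Gzmc had some in every tumor. A Runx match stood in 6 of the 8 member promoters and in 14.0% of 32851 promoters of this length, and an Ets match stood in 4 of 8 (Fasl, Gzmc, Gzmf, Prf1) and in 2.69% of all. The T-box letters AGGTGTGA were found for Nkg7 alone (1.12% of all promoters), and the Stat letters TTCNNNGAA for Ifng and Nkg7 (7.02% of all). These are letter matches on either strand, in which no match overlapped another in the 4 sequences shown, and Klrg1 was not in the table.

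NK_T_Cytolytic cells had higher levels of the pore-forming and granule membrane genes. All Klrg1 and Ifng UMIs and most granzyme UMIs of the NK/T cells lay in NK_T. In the progressed tumor the granzyme part rested on 1 NK_T cell, with 554 Gzma and 105 of 109 Gzmb UMIs. At least 1 of Gzma, Gzmb, Gzmc and Gzmf was detected in 10 of 25 untreated, 46 of 180 regressed and 3 of 17 progressed NK_T cells. In NK_T_Cytolytic it was 2 of 15, 11 of 58 and 7 of 24, so the progressed shares went the other way. Prf1 (chr10:61297751-61304684) was detected in 13 of 15 untreated, 46 of 58 regressed and 18 of 24 progressed NK_T_Cytolytic cells. Its level there was 937 CPM (656 to 1298) in the untreated, 709 CPM (595 to 837) in the regressed and 680 CPM (512 to 884) in the progressed tumor. The 3 intervals overlapped. In NK_T the same gene reached 8.26, 35.3 and 20.5 CPM, on 1, 19 and 2 UMIs. The log2 ratio of NK_T_Cytolytic over NK_T was 6.83 (4.26 to 12.17) in the untreated, 4.33 (3.63 to 5.10) in the regressed and 5.05 (3.13 to 8.13) in the progressed tumor. The clusters were built from these same counts, so each such ratio is a description and not a test.

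Nkg7 (chr7:43437138-43438246), whose protein takes part in granule release, was detected in all 97 NK_T_Cytolytic cells. After thinning of each cell to 1000 UMIs it was detected in all untreated, 96.4% of regressed and 87.5% of progressed cells kept, and Prf1 in 71.4%, 48.2% and 41.7%. The Nkg7 level in that cluster was 5858 CPM (5118 to 6676) in the untreated, 4191 CPM (3908 to 4488) in the regressed and 3472 CPM (3078 to 3902) in the progressed tumor, and the untreated interval lay above the other two. In NK_T it was 802, 524 and 966 CPM, in 10 of 25, 50 of 180 and 7 of 17 cells. Nkg7 was therefore present in both clusters and higher in NK_T_Cytolytic, with log2 ratios of 2.87 (2.52 to 3.23) in the untreated and 1.85 in the progressed tumor and an interval of 2.80 to 3.20 in the regressed one.

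Gzma, Gzmf, Klrg1 and Ifng had no UMI in any of the 97 NK_T_Cytolytic cells. Taken as 3 counts, a count of 0 in the 58 regressed cells allows up to 5.17% of cells with a UMI and a level of up to 15.4 CPM, which limits detection and not the share of cells that express the gene. The limits are wider in the untreated (3 of 15 cells and 78.1 CPM) and progressed tumor (12.5% and 37.1 CPM). In NK_T of the untreated, regressed and progressed tumor, Klrg1 was 190, 154 and 51.4 CPM on 23, 83 and 5 UMIs. Ifng was 49.6, 26.0 and 51.4 CPM there, on 6, 14 and 5 UMIs. With these limits, the log2 ratio of NK_T_Cytolytic over NK_T was at most 0.66, -0.76 and -0.47 for Ifng. It was at most -1.28, -3.32 and -0.47 for Klrg1. A 2-fold difference was therefore not shown for Ifng in any tumor, nor for Klrg1 in the progressed one. Gzmb (chr14:56258836-56262334), the protease best known for starting apoptosis, was low in NK_T_Cytolytic at 52.1, 56.5 and 49.4 CPM on 2, 11 and 4 UMIs. In NK_T it was 1347 CPM (1148 to 1571) in the untreated, 394 CPM (343 to 451) in the regressed and 1120 CPM (919 to 1351) in the progressed tumor. Its log2 ratio of NK_T_Cytolytic over NK_T was -4.69, -2.80 and -4.50 for the untreated, regressed and progressed tumor. The progressed value rested on 1 NK_T cell with 105 of the 109 UMIs, without which NK_T held 46.2 CPM, close to the 49.4 CPM of NK_T_Cytolytic.

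Gzmc (chr14:56231397-56241647), a granzyme of the chromosome 14 cluster, divided differently by tumor, on UMIs held by few cells. In NK_T_Cytolytic it was 104 CPM (28.4 to 267) in 1 of 15 untreated cells, 488 CPM (395 to 596) in 10 of 58 regressed cells and 222 CPM (132 to 351) in 4 of 24 progressed cells. In NK_T it was 620, 149 and 20.5 CPM. The log2 ratio of NK_T_Cytolytic over NK_T was -2.57 (-4.49 to -1.16) in the untreated tumor and 1.71 (1.27 to 2.16) and 3.44 (1.37 to 6.59) in the regressed and progressed ones. One untreated NK_T cell held 70 of the 75 Gzmc UMIs of its cluster, so the untreated direction rested on it. Without it the untreated NK_T level was 44.4 CPM (14.4 to 104). This was below the 104 CPM of NK_T_Cytolytic, which came from 4 UMIs in 1 cell, and the intervals overlapped. In NK_T_Cytolytic 1 progressed cell held 14 of 18 UMIs (51.3 CPM without it) and 1 regressed cell 41 of 95 (284 CPM without it).

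**Figure D1:**
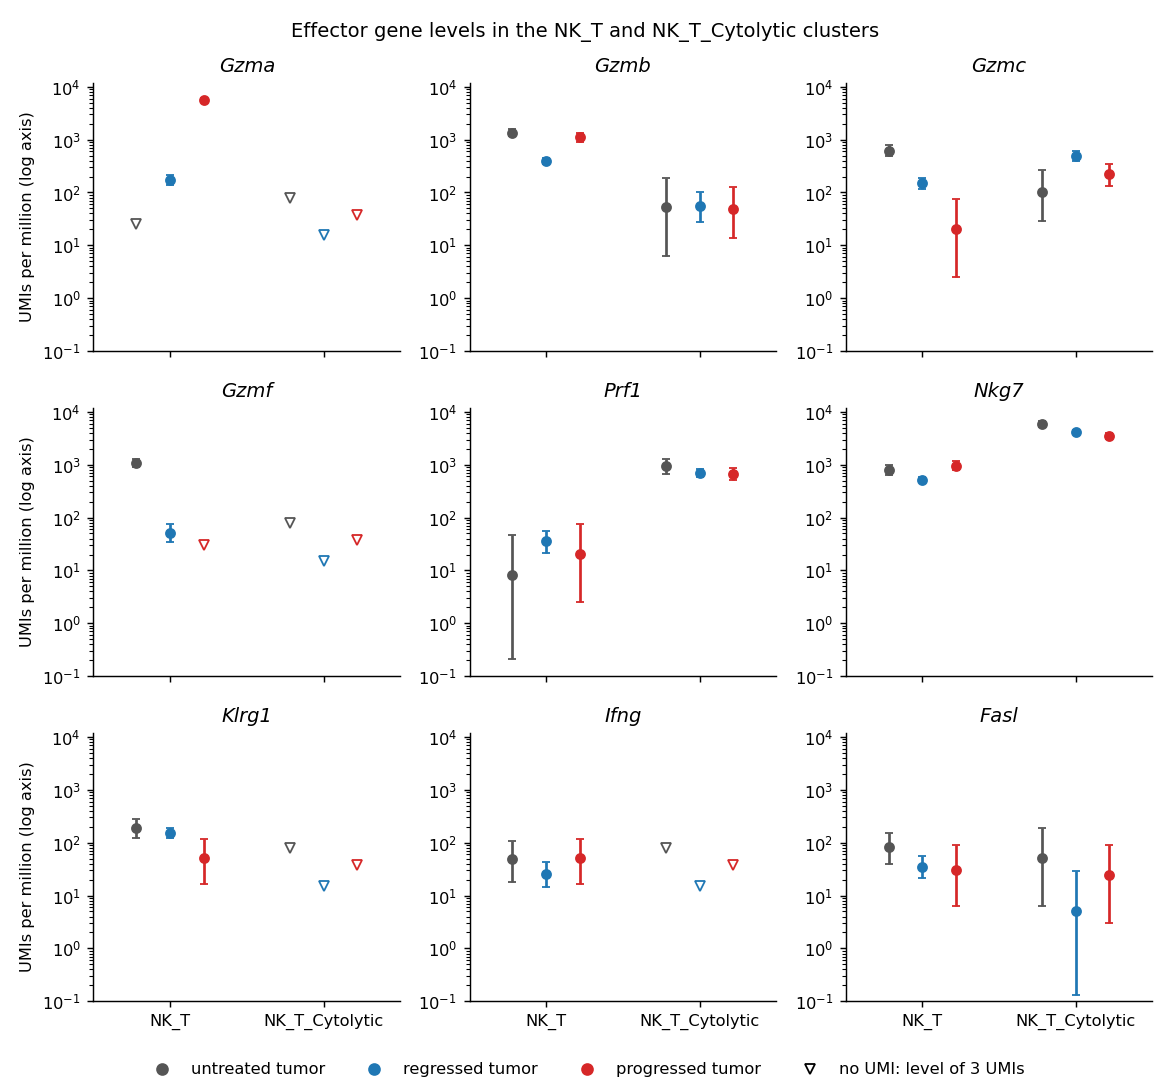
Level of the 9 genes in CPM (log axis) in the NK_T and NK_T_Cytolytic clusters of the untreated, regressed and progressed tumor, with exact Poisson 95% intervals; open triangles stand at the level of 3 UMIs where no UMI was counted. Prf1 and Nkg7 stand higher in NK_T_Cytolytic in all 3 tumors, while Gzma, Gzmf, Klrg1 and Ifng show only triangles there.

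Among all genes with at least 10 UMIs in the clusters compared, 12.6% were at least 2-fold higher and 12.7% at least 2-fold lower in NK_T_Cytolytic than in NK_T of the regressed tumor. Of the 9 effector genes, 3 were higher (Gzmc, Prf1, Nkg7) and 5 lower (Gzma, Gzmb, Gzmf, Klrg1, Fasl) by this measure. The share called was 20.8% higher and 18.5% lower in the untreated tumor, where 2 members were higher and 4 lower of 7 with enough UMIs, and 18.4% and 18.6% in the progressed one, where 3 were higher and 2 lower of 5.

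NK_T levels of several granzymes rested on single cells. Gzma (chr13:113093824-113100981), a tryptase-like granzyme, had no UMI in the 4095 cells of the untreated tumor, 92 UMIs in 8 regressed NK_T cells (171 CPM, 138 to 210) and 554 UMIs in 1 progressed NK_T cell (5692 CPM over the cluster). That cell, with 10832 UMIs in all, also held 105 of the 109 Gzmb UMIs of progressed NK_T cells, 38 Nkg7 and 8 Cd8a UMIs. It carried 702 of the 1134 effector UMIs of all progressed NK/T cells (61.9%). Gzmf (chr14:56205263-56211407) was similar in the untreated tumor, where 1 cell held 120 of 129 UMIs, and in the regressed one, where 1 held 25 of 28. No Gzmf UMI was found in the progressed tumor. Gzmf shares 9.12% of the 50-base stretches at its 3′ end with Gzmd and Gzmg, and Ifng shares 16.2% with Gm49751, so both values are less certain than those of the other members, which share none.

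The top cell of the untreated tumor held 23.2% and that of the regressed tumor 3.92% of the effector UMIs of its NK/T cells. Removing the top progressed cell left Gzma at 0 UMIs and Gzmb at 46.2 CPM in progressed NK_T cells, against 1120 CPM with it. For Nkg7 the level went from 966 to 647 CPM. Gzmb in the untreated tumor did not rest on 1 cell and was found in 10 of 25 NK_T cells. Of its 163 UMIs there, however, 4 cells held 35, 34, 31 and 31.

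**Figure D2:**
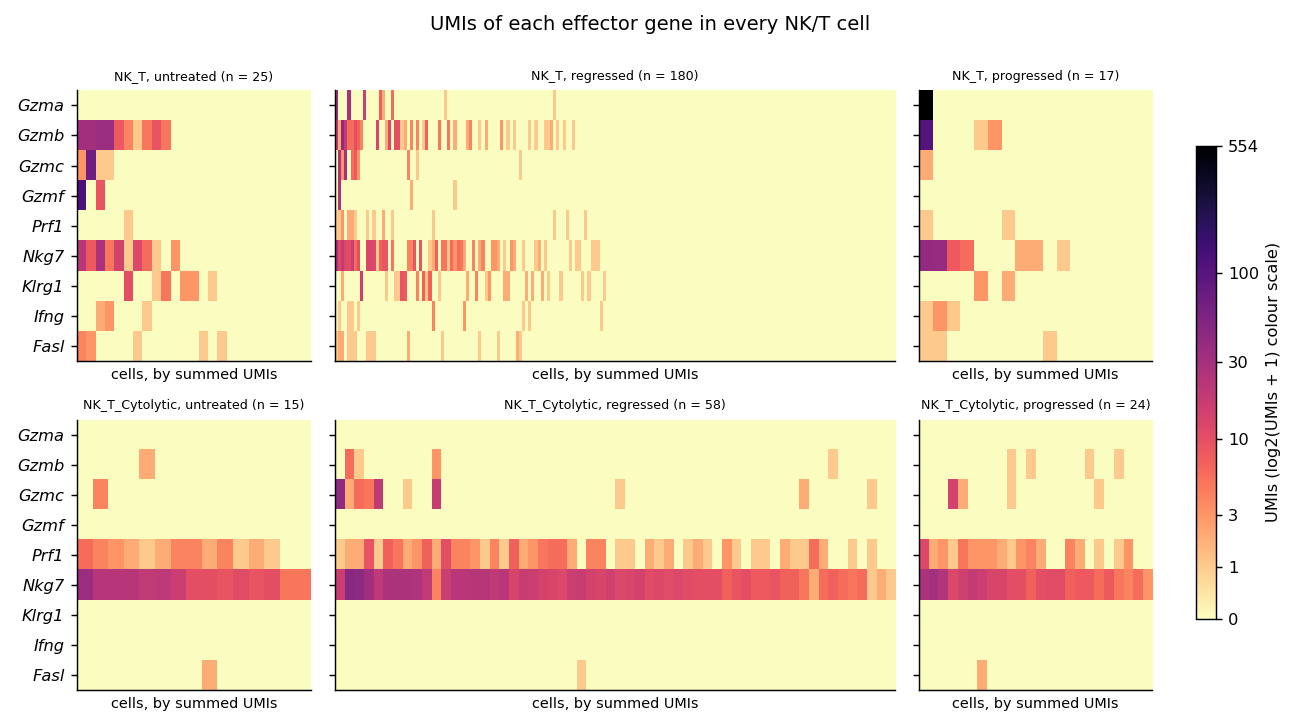
UMIs of the 9 genes in every NK/T cell, 1 column per cell, sorted by summed UMIs within each cluster and tumor (25, 180 and 17 NK_T cells, 15, 58 and 24 NK_T_Cytolytic cells); colour follows log2(UMIs + 1). The NK_T_Cytolytic panels are filled in the Nkg7 and Prf1 rows, and the darkest cell, with 554 Gzma UMIs, stands first among progressed NK_T cells.

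**Figure D3:**
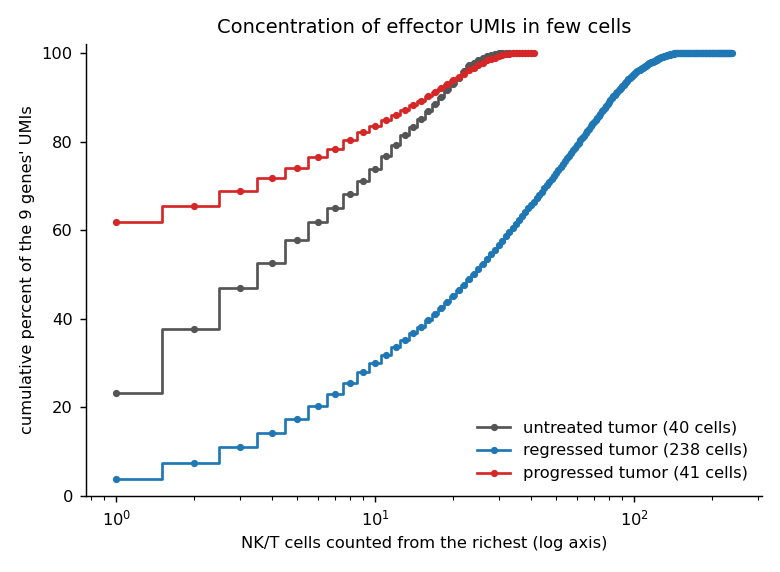
Cumulative percent of the UMIs of the 9 genes against the number of NK/T cells counted from the richest (log axis), 1 line per tumor. The first cell gives 61.9% in the progressed, 23.2% in the untreated and 3.92% in the regressed tumor.

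Summed over the 9 genes, NK/T cells reached 4849 CPM (4513 to 5203) in the untreated, 2578 CPM (2464 to 2697) in the regressed and 6361 CPM (5996 to 6742) in the progressed tumor. The regressed tumor was lowest, and its log2 ratio to the untreated one was -0.91 (-1.03 to -0.79), against a median of 0.20 over the 9498 genes compared. Some markers of other cell types went against the sum and were higher there. Red blood cell markers stood at 1624 and 1613 CPM in regressed NK_T and NK_T_Cytolytic cells (24.8 and 0 CPM untreated). Mast cell markers stood at 477 and 483 CPM (24.8 and 26.0 CPM), and keratinocyte markers at 626 and 503 CPM (82.6 and 104 CPM). All 2, 3 and 2 listed markers had UMIs. Neutrophil markers were lower, like the sum, at 503 and 452 CPM against 843 and 989 CPM. Stromal markers split by cluster, at 2766 CPM against 4579 CPM untreated in NK_T and 2624 CPM against 1172 CPM in NK_T_Cytolytic. The part of these markers in the lower sum was not tested. The progressed tumor was above the regressed one by 1.30 (1.20 to 1.41) and above the untreated one by 0.39 (0.26 to 0.53). Without the top cell of each tumor these became 0.043 (-0.11 to 0.20) and -0.58 (-0.77 to -0.40), so the higher progressed sum was carried by 1 cell. The regressed value stayed below the untreated one at -0.63 (-0.76 to -0.49). The 4 richest untreated cells held 23.2%, 14.5%, 9.31% and 5.69% of the effector UMIs of that tumor's NK/T cells. In the regressed tumor these shares were 3.92%, 3.65%, 3.60% and 3.12%. How far the ratio rests on the 4 untreated cells together was not tested.

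By gene, Gzma was at least 2-fold higher and Gzmb, Gzmc, Gzmf and Fasl at least 2-fold lower in regressed than in untreated NK/T cells, where 20.7% of all genes were called higher and 5.97% lower. The Gzmb ratio was -1.77 (-2.06 to -1.47) and that of Gzmf -4.40 (-5.05 to -3.81) on the log2 scale. In the untreated tumor 4 cells held 31 to 35 Gzmb UMIs each, and the Gzmb ratio without them was not computed. Without the cell with most effector UMIs of each tumor the Gzmf ratio was -0.60 (-1.73 to 0.67), no longer 2-fold. That cell held 120 Gzmf UMIs in the untreated tumor and none in the regressed one. Without the richest Gzmf cell of each tumor the ratio in NK_T was -3.80 (-6.32 to -1.79), on 3 regressed and 9 untreated UMIs. Gzmc stood at -1.05 (-1.44 to -0.65) but at 1.63 without the richest Gzmc cell of each tumor. Prf1 differed by -0.12 (-0.64 to 0.44), an interval that includes no difference, and Nkg7 by -0.43 (-0.61 to -0.25). Fasl (chr1:161780691-161788495) and Ifng (chr10:118441046-118445894), with 48 and 35 UMIs in all libraries, were too sparse for a narrow estimate, at -1.46 (-2.57 to -0.30) and -0.98 (-2.45 to 0.69).

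Between the progressed and the regressed tumor, Gzma (4.63) and Gzmb (1.06) were at least 2-fold higher and Gzmc (-1.09), Gzmf and Klrg1 (-2.01) at least 2-fold lower, with 6.92% of genes called higher and 18.3% lower. Both higher values turned without the richest cell of each tumor, to at most -2.23 for Gzma and to -2.57 for Gzmb. Against the untreated tumor, 1 member (Gzma) was higher and 4 (Gzmc, Gzmf, Klrg1, Fasl) were lower, where 13.5% and 7.52% of 5399 genes were called. Without the richest cell of each tumor no Gzma UMI was left in the NK/T cells of either. The Gzmb ratio then went from -0.71 to -4.19. Gzmc stood at -2.14, and at -0.80 (-2.57 to 0.85) without its own richest cell in each tumor. Gzmf, with no progressed UMI, was at most -5.59, but without its own richest cells at most -0.91 in NK_T, short of 2-fold. Fasl stood at -1.42 (-3.28 to 0.18), on 5 progressed and 12 untreated UMIs, an interval that includes no difference. Klrg1 stood at -2.36 (-4.11 to -0.94). The comparisons share tumors, so they are not independent of each other. Prf1 and Nkg7 differed from the untreated level by 0.46 (-0.16 to 1.10) and 0.06 (-0.16 to 0.28) over both clusters, of which NK_T_Cytolytic made up 37.5% of untreated and 58.5% of progressed NK/T cells. Within NK_T_Cytolytic the same ratios were -0.46 (-1.10 to 0.18) and -0.75 (-1.01 to -0.50). In NK_T_Cytolytic the summed level was 7004 CPM (6192 to 7892) in the untreated, 5449 CPM (5126 to 5787) in the regressed and 4448 CPM (4000 to 4932) in the progressed tumor, and these intervals did not overlap.

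The genes were detected in partly different cells of the same tumor. In the 238 NK/T cells of the regressed tumor, a UMI was found for Nkg7 in 108, Prf1 in 60, Gzmb in 42, Klrg1 in 26, Gzmc in 19, Fasl in 16, Ifng in 9, Gzma in 8 and Gzmf in 3 cells. Of the 60 Prf1 cells, 57 also had Nkg7 (interval 86.1% to 99.0%), against 28.7% of cells without Prf1. Of the 42 Gzmb cells only 9 had Prf1 (21.4%, 10.3% to 36.8%), a share close to the 26.0% among cells without Gzmb. Gzmc cells had Prf1 more often, in 14 of 19 (73.7%, 48.8% to 90.9%). In the untreated tumor 2 of 11 Gzmb cells and in the progressed tumor 4 of 7 had Prf1. These shares mix both clusters. Within NK_T of the regressed tumor, Prf1 was found in 6 of 38 Gzmb cells (15.8%, 6.02% to 31.3%) and in 5.63% (2.50% to 10.8%) of the others, and Nkg7 in 11 of 14 Prf1 cells (78.6%, 49.2% to 95.3%) and in 23.5% of the others.

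Klrg1 (chr6:122270596-122282833), an inhibitory receptor of differentiated lymphocytes, was most often found with Gzmb. Gzmb was detected in 15 of the 26 regressed Klrg1 cells (57.7%, 36.9% to 76.6%), against 12.7% (8.56% to 18.0%) of cells without Klrg1 and 14.9% of the NK_T cells without it. Within NK_T, Nkg7 was detected in 4 of the 26 (15.4%) and in 29.9% of the others, Prf1 in 1 (3.85%) and in 8.44%, and Gzmc in 2 (7.69%) and in 4.55%. After every cell was thinned to 1000 UMIs, 4 of 16 Klrg1 cells had Gzmb (interval 7.27% to 52.4%), against 10.6% of the others. At most 7 of the 9 genes were found in any 1 cell.

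**Figure D4:**
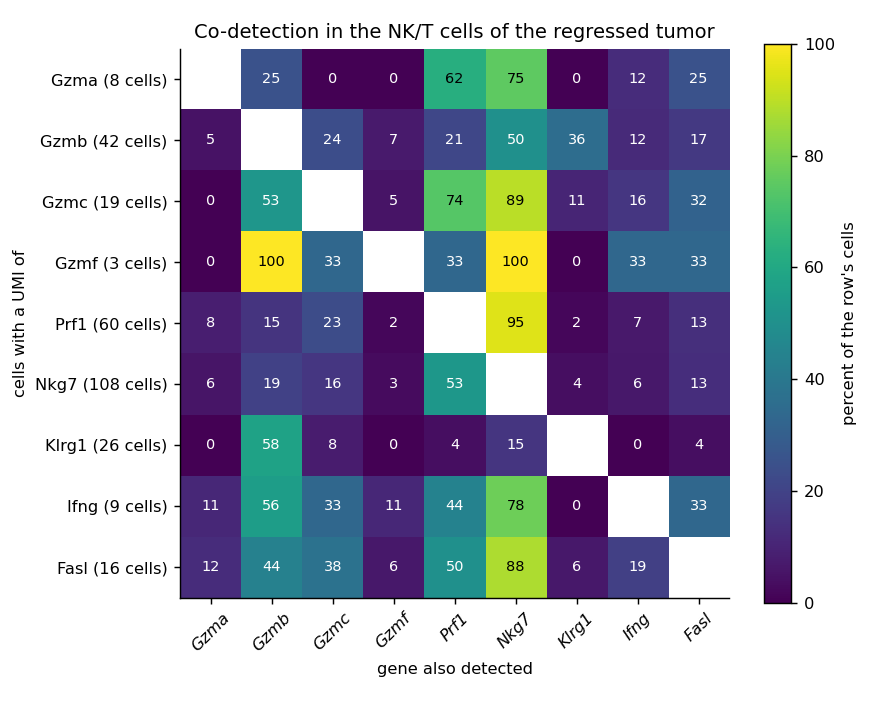
Co-detection in the 238 NK/T cells of the regressed tumor; each square gives the percent of cells with a UMI of the row's gene that also had a UMI of the column's gene, with the number of cells beside the row name. The Prf1 row reads 95% for Nkg7, and the Klrg1 row 58% for Gzmb and 4% for Prf1.

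Split by Foxp3 and Ncr1, a division chosen after the cluster values had been seen, the NK_T cells of the regressed tumor fell into different mixtures. Among 35 Foxp3+ cells Gzmb was detected in 18 (51.4%, 34.0% to 68.6%) and Klrg1 in 19 (54.3%, 36.6% to 71.2%), and Prf1, Gzma, Gzmc, Gzmf, Ifng and Fasl in none. Among the 145 NK_T cells without a Foxp3 UMI the shares were 13.8% (8.63% to 20.5%) for Gzmb and 4.83% (1.96% to 9.69%) for Klrg1, at a median of 2618 UMIs per cell against 2779. The Foxp3+ cells, 19.4% of the cluster, held 83.1% of its Klrg1 UMIs and 29.2% of its Gzmb UMIs. All 3 untreated Foxp3+ cells had Klrg1 and 2 had Gzmb, 1 of these with Prf1. Of the 3 progressed Foxp3+ cells, 1 had Klrg1 and 2 had Gzmb.

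The 13 Ncr1+ cells of the regressed tumor carried the fullest set by detection, which rises with depth and is given here uncorrected. The 4 of them with most effector UMIs had 4625 to 7678 UMIs in all, against a median of 2652.5 in regressed NK_T. Among the 13 cells, Nkg7 was detected in 13, Gzmb in 9, Prf1 in 8, Fasl in 7 and Gzmc in 6. Ifng was detected in 5, Gzma in 4 and Gzmf and Klrg1 in 1 each. Their summed level was 8420 CPM (7634 to 9265), against 744 CPM (657 to 840) in the 132 cells with neither Foxp3 nor Ncr1. In the untreated tumor 5 Ncr1+ cells held 389 of the 504 effector UMIs of NK_T, including all 129 Gzmf and 74 of 75 Gzmc UMIs, and none of them had Prf1 or Klrg1. No Ncr1 UMI was found in the 17 progressed NK_T cells, where the richest cell had CD3 genes and Cd8a.

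**Figure D5:**
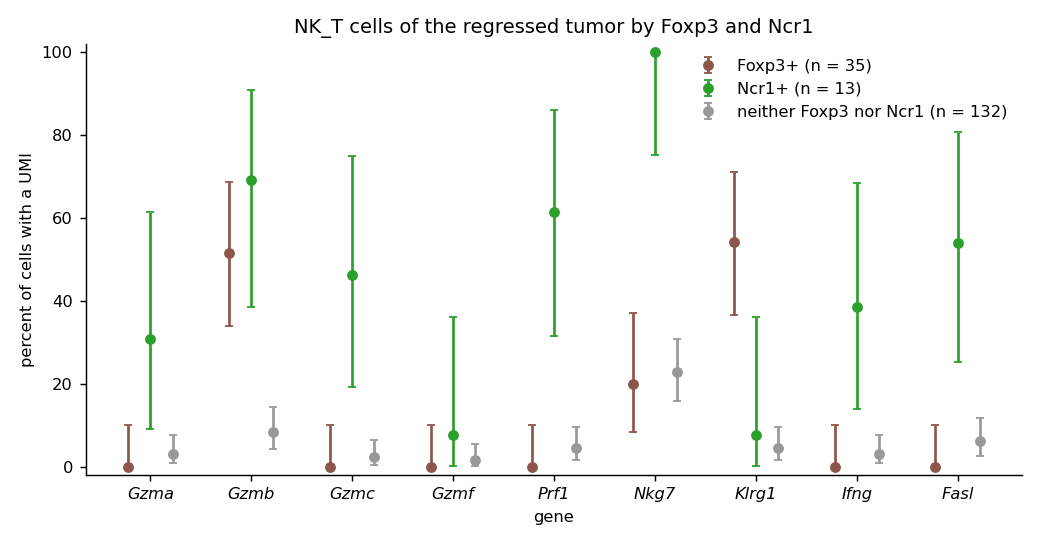
Percent of NK_T cells of the regressed tumor with a UMI of each gene, with exact Clopper-Pearson 95% intervals, in 35 Foxp3+ cells, 13 Ncr1+ cells and 132 cells with neither. Klrg1 is highest in Foxp3+ cells (54.3%), and the other genes are highest in Ncr1+ cells, with all 13 positive for Nkg7. Shares are not corrected for depth.

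NK/T cells held most of the effector RNA of each tumor: 82.0% (79.4% to 84.4%) of the UMIs of the 9 genes in the untreated, 79.9% (78.3% to 81.5%) in the regressed and 91.1% (89.4% to 92.6%) in the progressed tumor. Stromal cells, a type not known to use these genes, showed a UMI in 1.37%, 10.2% and 0.964% of cells, never more than 2 UMIs per cell, at median depths of 4654, 3151.5 and 4388 UMIs. These shares were taken as the background, which was highest in the regressed tumor, where Nkg7 was seen in 6.67% of stromal cells. The rarest genes of regressed NK/T cells stood above it: Gzma was found in 3.36%, Gzmf in 1.26% and Ifng in 3.78% of NK/T cells, against 0.417%, 0.156% and 0.261% of stromal cells.

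Outside the NK/T clusters, 7 cells had at least 10 effector UMIs. A Dividing cell of the untreated tumor held 48 Gzmb, 20 Nkg7 and 13 Gzmc UMIs with 33 Cd3g UMIs, and 3 Dividing cells of the regressed tumor held 35, 27 and 21 effector UMIs, mostly Nkg7, all with CD3 genes. These 4 cells carried T cell genes. In the progressed tumor a Bloodvessel cell had 17 Gzmc and 3 Ifng UMIs with 9 Cd3g and 5 Pecam1 UMIs, and a Monocytes2 cell had 11 Gzma UMIs with 5 of Flt3 and 7 of Lyz2. A regressed Macrophages cell had 13 Nkg7 UMIs with 8 of Lyz2 and 8 of Cd3g. Whether such cells were doublets was not tested.

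The related genes on 7 lists gave the wider setting. Other granzymes (Gzmd, Gzme, Gzmg, Gzmk, Gzmm, Gzmn) had 0 to 2 UMIs each in all NK/T cells. Among granule genes, Ctsw, a cathepsin of cytotoxic cells, followed Nkg7 with 1796, 1381 and 939 CPM in NK_T_Cytolytic against 322, 264 and 318 CPM in NK_T. Ctsc, which activates granzymes, was 208, 365 and 247 CPM against 33.1, 79.9 and 51.4 CPM. In the regressed tumor 3 of 8 granule genes with enough UMIs were at least 2-fold higher and 1 lower in NK_T_Cytolytic, and 4 of 7 receptors were higher and 1 lower, where 12.6% of all genes were higher and 12.7% lower. The granule counts were 2 higher and 0 lower of 4 in the untreated and 4 and 0 of 5 in the progressed tumor, and the receptor counts 3 and 1 of 6 and 4 and 1 of 7, where 20.8% and 18.5% and 18.4% and 18.6% of all genes were called.

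Receptors and chemokines divided in the same 2 directions. Klrd1, an NK lectin receptor chain, was 1067, 1525 and 1001 CPM in NK_T_Cytolytic and 306, 186 and 216 CPM in NK_T, and Fcer1g, a signalling adaptor, 4400, 3323 and 3682 CPM against 818, 528 and 627 CPM. Cd226, an activating receptor, had no UMI in NK_T_Cytolytic and 107, 92.9 and 236 CPM in NK_T. Ccl5, a chemokine of activated lymphocytes, was 0, 10.3 and 12.4 CPM in NK_T_Cytolytic against 1041, 687 and 781 CPM. Xcl1, which attracts dendritic cells, was 1432, 1279 and 1198 CPM there and 702, 318 and 71.9 CPM in NK_T. Of the transcription factors, Runx3 was 495, 642 and 432 CPM against 132, 167 and 134 CPM, while Eomes and Tbx21 had 10 UMIs each in all NK/T cells, none of them in NK_T_Cytolytic.

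The 53 listed genes were also compared between tumors. Of 42 with enough UMIs, 9 were at least 2-fold higher and 3 lower in regressed than in untreated NK/T cells, where 20.7% and 5.97% of all genes were. Ccl4, a chemokine of activated lymphocytes, had a log2 ratio of -4.83 between the progressed and the regressed tumor, 1 of 3 listed genes that were lower there, and none was higher of 40, where 18.3% of all genes were lower and 6.92% higher. Serpinb9, an inhibitor of Gzmb, had 29 UMIs in all NK/T cells. Ifngr1, a chain of the Ifng receptor, was 281, 704 and 370 CPM in NK_T.

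The genes whose levels over 60 cluster-by-tumor groups of at least 10 cells were most like the summed effector level were Ctsw (Pearson r = 0.933), Il2rb (0.901), Cd3e (0.894), Cd3d (0.884), Xcl1 (0.883), Cd3g (0.872), Zap70 and Sh2d2a (both 0.869), of 15952 genes ranked. The groups of 1 tumor share a library, and most have levels near 0, so the coefficients describe which genes lie in the NK/T clusters.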

How the data were processed

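Cells sorted from 3 tumors, 1 per group, were profiled with 10x Genomics Chromium 3′ v2 libraries. The authors aligned reads with GSNAP to GRCm38, kept uniquely mapping reads in the sense direction of exons, removed cells under 300 UMIs, and deposited raw UMI counts per gene and cell together with cluster names made with Seurat 2.2.0, which were used as deposited. Table sums exceeded the total UMI counts that the authors deposited by 4.42% to 6.09%. Cell IDs are running numbers, so barcodes shared between libraries could not be counted, and 0 IDs were shared.

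Counts were summed per cluster and tumor and given as CPM with exact Poisson intervals, shares of cells with Clopper-Pearson intervals, and ratios with exact conditional binomial intervals, all at 95%. Where a group had 0 UMIs, the ratio was bounded with 3 UMIs over the group. A gene was compared with at least 10 UMIs in the 2 groups and called at 2-fold. Features were matched to symbols for 31127 of 36530. The ratio code was tested on simulated independent Poisson counts, a setting without the gathering of UMIs in single cells seen here. No doublet caller was run, and cells with most UMIs or with markers of other types were left out as alternatives. The named genes were the 9 members, the listed pathway genes with at least 20 UMIs in NK/T cells, given otherwise as counts, and the 8 genes most alike. The members and lists were chosen with earlier results of these data known. Python 3.11.15, numpy 2.4.6, scipy 1.17.1, pandas 2.3.3, Biopython 1.88, matplotlib 3.10.9 and edgeR 4.0.16 in R 4.3.3 (TMM alone) were used. Promoters came from RefSeq (GRCm38.p6). 1 item of the mouse model is not reported here. No columns of per-sample values were left unused (0).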

Additional observations from a re-analysis of the deposited data

Results flagged for a closer look

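Effects of opposite direction in NK_T and NK_T_Cytolytic stood out in 4 results, each from 1 tumor per group. The difference between the clusters was not tested in any of them. Gzmc had a log2 ratio of regressed over untreated of -2.06 in NK_T and 2.23 in NK_T_Cytolytic. Without the richest Gzmc cell of each tumor the NK_T ratio was 1.14 (-0.17 to 2.82), so its direction rested on 1 untreated cell.

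The summed level of the 9 genes had a log2 ratio of progressed over regressed of 2.37 in NK_T and -0.29 in NK_T_Cytolytic, and of progressed over untreated of 0.93 in NK_T and -0.66 in NK_T_Cytolytic. Without the richest cell of each tumor the NK_T values were -0.77 (-1.14 to -0.42) and -1.76 (-2.15 to -1.39), which have the sign of the NK_T_Cytolytic values.

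Nkg7 had a log2 ratio of progressed over regressed of 0.88 in NK_T and -0.27 in NK_T_Cytolytic. Without the richest cell the NK_T value was 0.41 (-0.03 to 0.83).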

How the results depend on the processing

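No paired analysis was possible because each group held 1 tumor. The summed NK/T ratio of regressed over untreated (-0.91) stayed below 0 under every alternative run. It was -1.04 with TMM, -1.13 without the cells with most UMIs, -0.63 without the richest cell and -0.36 in NK_T_Cytolytic. It was -1.44 in NK_T and -1.39 without Nkg7. Without the 10% of cells with the largest share of 13 markers of other types, an alternative chosen after seeing the data, it was -1.06. No alternative left out the 4 richest untreated cells alone. Progressed over regressed (1.30) was 0.86 thinned to 1000 UMIs, 0.97 with equal weight per cell, 0.19 without the cells with most UMIs, 3.06 without cells with 2 markers of other types (6 and 7 cells left, none in the untreated tumor), 0.043 without the richest cell, -0.29 in NK_T_Cytolytic, 2.37 in NK_T, 1.98 without Nkg7 and 1.44 without the largest share. Progressed over untreated (0.39) turned to -0.16 thinned, -0.035 with equal weight, -0.94 without the cells with most UMIs, -0.58 without the richest cell and -0.66 in NK_T_Cytolytic, and was 0.93 in NK_T and 0.59 without Nkg7. Single members turned for Gzma, progressed over regressed, to at most -2.14 without the cells with most UMIs and -2.23 without the richest cell, overall or of Gzma, for Gzmb to -2.83, -2.57 and -2.40, and for Gzmc, regressed over untreated, to 1.63 without its richest cell. Of 210 single-member values 147 stayed within the interval of the reported value, 26 were bounds that did not contradict it, 30 moved and 7 reversed. When thinned, 2 of these bounds no longer showed a 2-fold difference: Gzma, regressed over untreated, at least 0.59, and Gzmf, progressed over regressed, at most 1.71.

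The share of NK/T cells with a member UMI fell from 60.9% to 52.7% and 45.3% at 1000 and 500 UMIs, 53.8% at 2 UMIs and 49.2% without Nkg7 in the regressed tumor, and from 85.4% to 70.7%, 61.0% and 63.4% without Nkg7 in the progressed one. The share of member UMIs in NK/T cells was 87.5% thinned and 90.6% with Dividing cells in the untreated tumor, and 82.4%, 83.6% and, without Nkg7, 84.2% in the regressed one. Gzmb cells with Prf1 went to 0% when thinned in the untreated tumor and, without cells with 2 other markers, in the regressed one, where 1 Gzmb cell was left (interval to 97.5%). Genes called at 2-fold went from 1969 higher and 567 lower to 558 and 100 at a minimum of 50 UMIs (2349 lower at 1 UMI) for regressed over untreated, from 659 and 1741 to 117 and 391 (2423 higher at 1) for progressed over regressed, and from 731 and 406 to 50 and 24 (1553 and 1413 at 1) for progressed over untreated. Depth limits the rare members: Ifng and Fasl had 35 and 48 UMIs in all.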
